A study of Mus musculus with 6 samples.

Results

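Cyclins, cyclin-dependent kinases (CDKs), Aurora and Polo kinases and their close regulators were examined in round spermatids, the haploid cells left by meiosis that later elongate into sperm. The members were the rows of the count table whose symbols name cyclins of the A, B, D, E and T types, numbered CDKs, CKS subunits, Cdkn genes, Aurora, Polo and NIMA-related (Nek) kinases, Cdc25 phosphatases, Wee1-type kinases, or the activators Cdc20 and Fzr1. The rule found 64 members among 22770 gene rows and used no measured value. The symbols also brought in genes of other function: the pseudogenes Ccnb1-ps and Ccnb2-ps, Ccnb1ip1, which encodes a ubiquitin ligase of meiotic crossover, and Cdkn2aip and Cdkn2aipnl, which are not CDK inhibitors.

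Sorted round spermatids of mouse testis were compared between the genotype labelled Eif5a SKO, an abbreviation that the labels leave unexpanded, and wild type, with 3 Smart-seq2 libraries each at postnatal day 28, when most cells were at step 8 of spermatid development. Eif5a encodes a translation factor that frees ribosomes stalled on difficult peptide stretches, and the study asks how its loss affects transcription and nuclear organisation. The labels do not say which Cre, promoter or allele was used, whether libraries came from separate animals, or the age or strain beyond the postnatal day, so p-values measure the spread between these libraries, which may be technical. Levels are CPM, which are counts scaled to equal TMM-adjusted library totals; group means carry the SD over 3 libraries. Fold changes are SKO against wild type on the log2 scale with a standard error (SE), from edgeR's quasi-likelihood test. A gene is called higher or lower where the Benjamini-Hochberg adjusted p over all 19776 genes tested was under 0.05.

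Library totals ran from 52055193 to 60970931 counts. Eif5a stood at 6.88, 6.27 and 5.35 CPM in the SKO libraries and at 700.9, 616.4 and 661.7 CPM in wild type, so that the labels and the levels matched. The second principal component, with 11.7% of the variance, set SKO replicate 3 (-34) apart from SKO replicates 1 and 2 (18.9 and 19). All 14 round spermatid markers were detected, with a summed level of 10725 to 11838 CPM in SKO and 7058 to 7907 CPM in wild type. Markers of other cells also differed: the 9 Sertoli cell genes found of 16 listed had summed levels of 78.4 to 219 CPM in the SKO libraries, and of 20.3 to 27.3 CPM in the wild-type ones. The 7 Leydig cell genes summed to 69.9 to 124 against 40 to 64.5 CPM. Most of that sum was Fdx1 (58.1 to 89.6 against 38.6 to 42.9 CPM), and 4 of the 7 were called higher and 3 not called. The 15 spermatocyte genes summed to 1742 to 2168 against 1533 to 1725 CPM, and the 8 spermatogonial genes to 19.8 to 21 against 27.8 to 29.9 CPM. In the spermatocyte list 3 genes were called higher and 5 lower (median log2 fold change -0.03). Syce1, called higher, made up most of the list's sum (1205 to 1525 against 892.9 to 1055 CPM). Sycp3 and Dmc1 rose by 1.82 and 1.56 on the log2 scale. Ovol2, Ccdc155 and Meiob fell by 1.19, 1.44 and 2.00, and Hormad2 and Spo11 by 0.60 and 0.72. The 6 peritubular, endothelial and immune genes found summed to 16.2 to 37.5 against 7.53 to 14.3 CPM. Of these, Acta2 was higher (21.4 against 5.86 CPM) and the macrophage marker Adgre1 lower (0.384 against 2.64 CPM). The Sertoli marker Cst12 was at 0 counts in 1 wild-type library and the Leydig marker Insl3 in 2. The part of these differences in the results was not tested, and in sorted bulk cells a changed mix of cells and a changed level of RNA per cell cannot be told apart.

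A CDK works only when bound to a cyclin. CDK1 with B-type cyclins drives entry into the divisions of mitosis and meiosis, Wee1 and Pkmyt1 kinases hold it back, Cdc25 phosphatases release it, and the anaphase-promoting complex (APC/C), switched on by Cdc20 or Fzr1, ends it by marking cyclin B for destruction. Aurora and Polo kinases run the spindle, the centrosomes and chromosome attachment. Round spermatids have finished both meiotic divisions and do not divide again. Several cell-cycle genes are nevertheless transcribed late in meiosis or after it in the testis, and Ccna1 and Aurkc are known mainly from germ cells.

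Among the 63 members that passed the filter on low counts, 11 were called higher in SKO and 14 lower by edgeR. The remaining 38 were not called, and Cdk3, at 0 counts in every SKO library and 0 to 22 counts in wild type, was not tested. The share called was 39.7%, where the background over all genes tested was 42.0%. By direction it was 17.5% higher and 22.2% lower, against 21.2% and 20.9% of all genes. The SKO values lay wholly above the wild-type values for 18 members and wholly below for 17, where the shares of all genes were 27.3% and 28.3% (55.6% in either direction). Calls of at least 2-fold numbered 4 higher and 9 lower, where 24.7% of all genes had such a call in either direction. The members' median log2 fold change was -0.11, beside 0.012 for all genes. Members were thus called about as often as genes at large. The directions differed more among members abundant in wild type. Of the 18 at 50 CPM or more in wild type, 1 (5.56%) was higher and 7 (38.9%) lower, against 29.5% and 22.9% of all genes at that level. At 10 CPM or more the shares were 17.1% and 31.4%, against 25.7% and 27.3%. This split was not tested. The cut used the wild-type level alone, for members and all genes alike. Such a cut favours genes that fell over genes that rose. Cks2 (56.7 against 20.9 CPM) and Nek1 (56.6 against 34.6 CPM), called higher, reached 50 CPM only in SKO. So did Cdk7 (60.6 against 48.9 CPM), which was not called. Aurkc, Cdk16 and Cdk20, called lower, and Cdc25a, Nek4 and Cdkn2d, not called, reached it only in wild type.

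The largest falls were in the meiotic Aurora kinase gene Aurkc (4.76-fold), the CDK family gene Cdk18 (3.93-fold) and the CDK1 inhibitory kinase gene Pkmyt1 (3.64-fold). The D-type cyclin gene Ccnd3 (3.04-fold) and Cdk6 (2.9-fold) came next. Plk1 and Cdc20 fell less, by 2.15-fold and 2.08-fold. The largest rises were in Cks1b (2.99-fold), Cdk12 (2.96-fold) and Cks2 (2.71-fold). Of the 4 most abundant members, Ccnb2 rose by 1.42-fold and Aurka, Ccna1 and Ccnb1 were not called. Of the called members, 7 of the 11 higher and 9 of the 14 lower kept their call in each of the 14 alternative analyses in which they could be tested. The number called lower dropped to 9 without wild-type replicate 1 and to 9 without wild-type replicate 2. Over all genes it dropped from 4127 to 3160 and 3025 in the same fits. Scaled by library totals alone, which moved the median of all genes to -0.228, 7 members were called higher and 19 lower. Of all genes, 2831 were then higher and 5666 lower, beside 4185 and 4127 in the main fit. After correcting for length and GC content of the transcripts the split was 16 higher and 11 lower. Over all genes that split was 4180 and 3808.

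**Figure D1:**
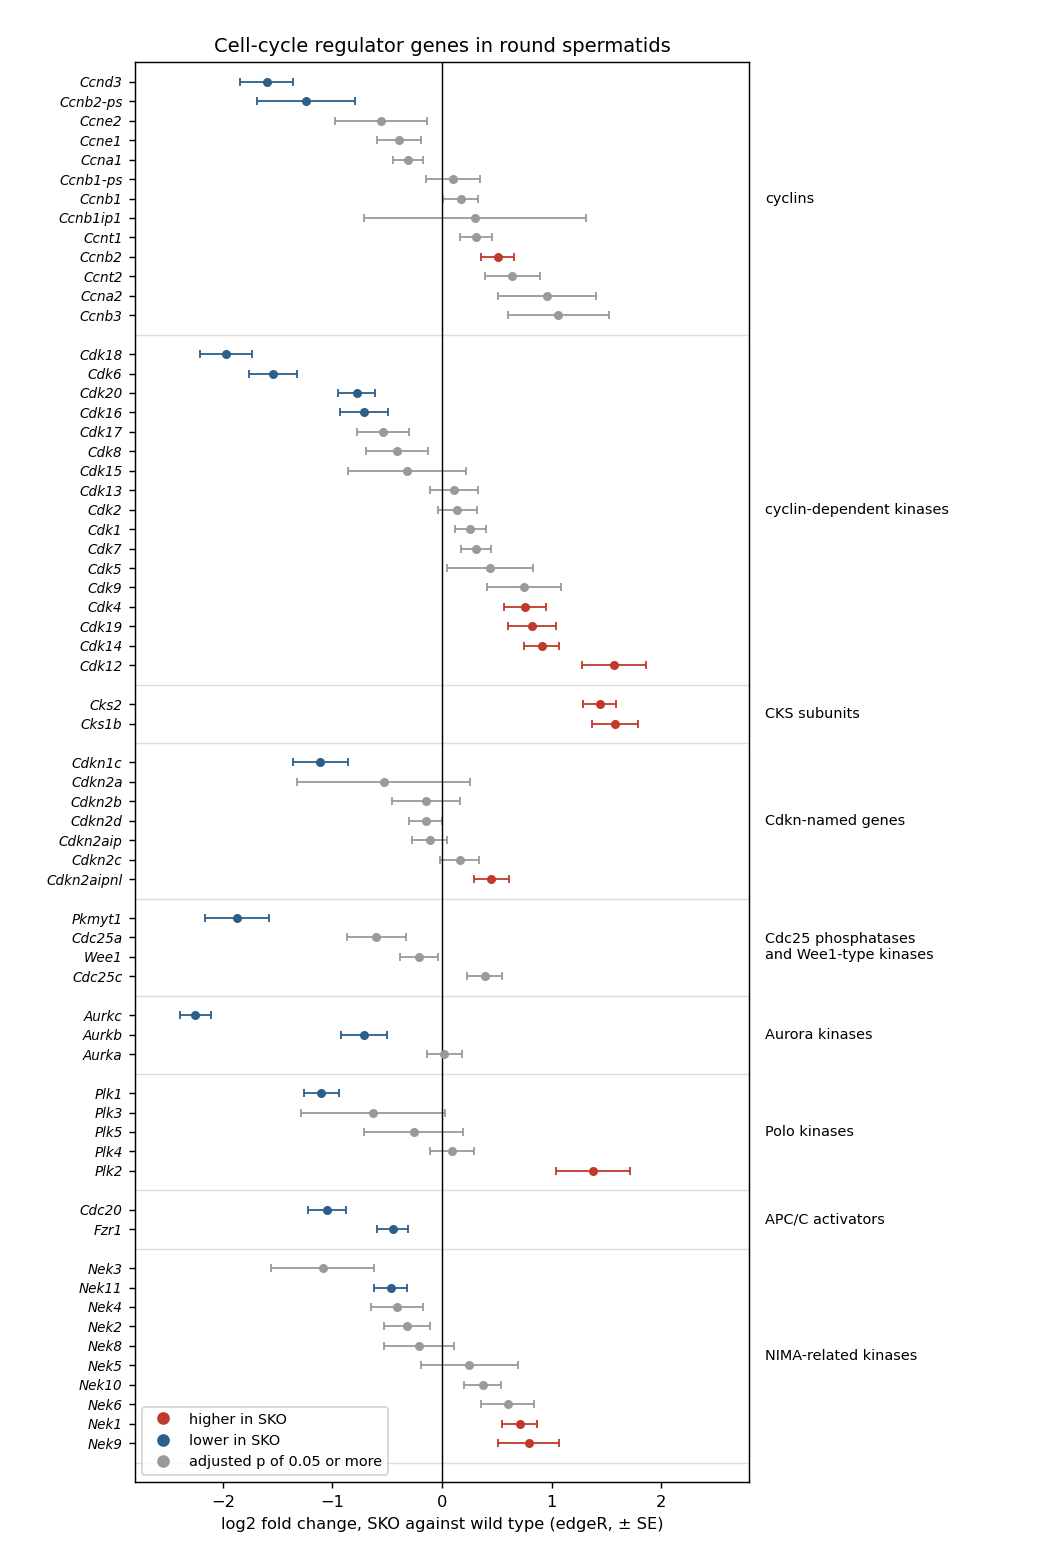
Log2 fold change of each tested member in SKO against wild type (x axis, edgeR, bars give the SE), by role and coloured by call; 11 members are higher, 14 are lower and 38 are grey. Both CKS subunits lie to the right and both APC/C activators to the left, while the other roles hold points near 0 and points that passed the test in 1 or both directions.

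Levels were also divided by transcript length, so that different genes can be compared roughly. The length was that of a single annotated transcript per gene, the one with the longest coding sequence. That transcript need not be the one expressed here, and the ranks and shares depend on it. Per kilobase of transcript, Ccnb2 led in wild type at 421 ± 20.7 CPM per kb. Aurka (270 ± 3.46) and Ccna1 (261 ± 15.9 CPM per kb) followed and did not differ beyond their spread, then Ccnb1 at 207 ± 6.23 CPM per kb. A second tier held Cdc20 (98.2 ± 17.2), Plk1 (97.9 ± 5.55) and Ccnd3 (91.2 ± 4.38 CPM per kb), which overlap within their spread, and below them Aurkc at 62 ± 1.56 CPM per kb and Fzr1 at 59.9 ± 1.22 CPM per kb. The leading member in SKO was again Ccnb2, at 600 ± 114 CPM per kb, followed by Aurka (274 ± 56.7), Ccnb1 (233 ± 47) and Ccna1 (210 ± 28 CPM per kb), whose values overlap. Cks2 went from rank 15 among the members in wild type to rank 5 in SKO, whereas Aurkc went from rank 8 to rank 16 and Ccnd3 from rank 7 to rank 14.

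**Figure D2:**
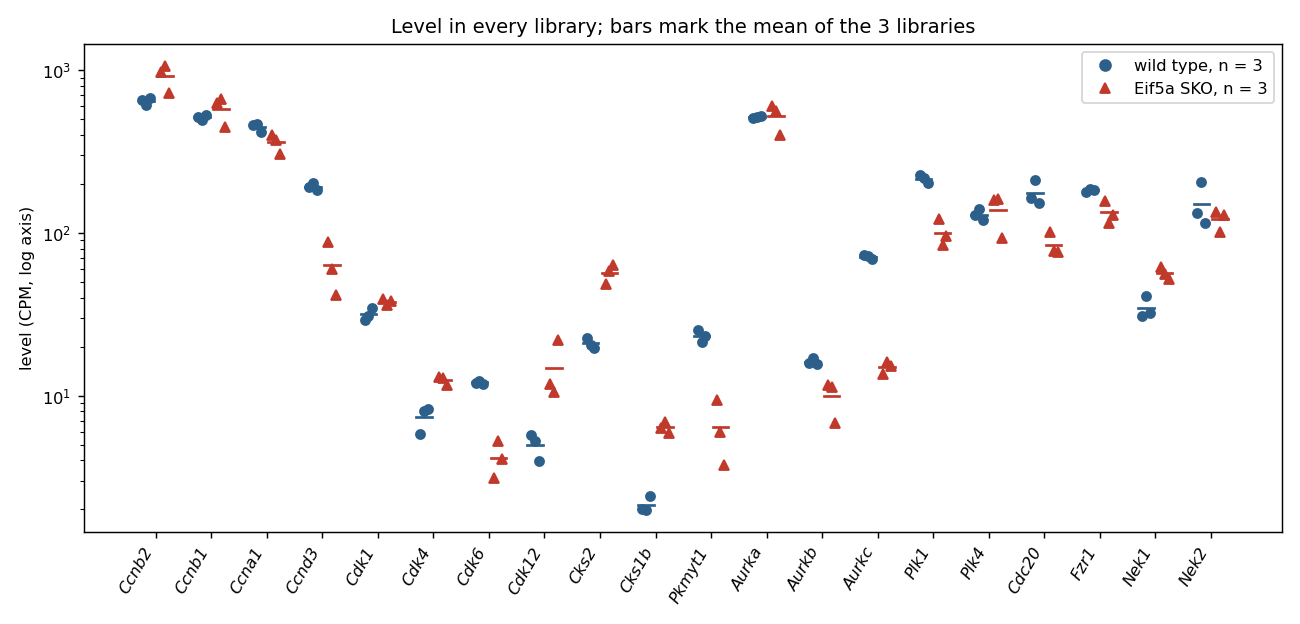
Level of 20 members in each library (y axis, CPM on a log axis, not scaled for transcript length); circles are the 3 wild-type and triangles the 3 SKO libraries, and bars mark the group means. Ccna1, Ccnd3, Cdk6, Pkmyt1, Aurkb, Aurkc, Plk1, Cdc20 and Fzr1 lie lower in SKO without overlap. Ccnb2, Cdk1, Cdk4, Cdk12, Cks1b, Cks2 and Nek1 lie higher without overlap. The groups of Aurka, Ccnb1, Plk4 and Nek2 overlap. Of all genes tested, 55.6% did not overlap in either direction.

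The CKS proteins are small subunits that clip onto CDK complexes and help them and the cell-cycle ubiquitin ligases to engage phosphorylated substrates. Both genes of this kind rose, where 21.2% of all genes were called higher. Their transcripts are short, at 692 bases for Cks2 and 849 for Cks1b. Of all genes with transcripts under 2000 bases, 29.4% were called higher and 15.3% lower. Cks2, on chromosome 13 (GRCm38, plus strand, 51645232 to 51650660), stood at 48.8, 58 and 63.2 CPM in SKO and at 22.7, 20.4 and 19.7 CPM in wild type. Every SKO library was above every wild-type library, and the log2 fold change was 1.44 ± 0.15 (edgeR adjusted p = 0.000131). Cks1b, on chromosome 3 (minus strand, 89415472 to 89418383), stood at 6.36, 6.90 and 5.86 CPM in SKO against 2.01, 1.98 and 2.40 CPM. It too did not overlap between groups and rose by 1.58 ± 0.21 (edgeR adjusted p = 0.000386). Both held in the 14 alternatives, from 1.17 to 1.51 for Cks2 and from 1.34 to 1.67 for Cks1b. Cks2 made up 91.5% ± 1.32 of the pair's level per kb in SKO and 92.3% ± 1.2 in wild type, and the shares overlapped (exact permutation test, two-sided, p = 0.5, adjusted p = 0.5 over 6 such shares).

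The promoter windows of 6 members whose groups did not overlap follow, 3 that rose and 3 that fell, so that the elements near their starts can be compared. Each runs from 250 bases before to 50 after the RefSeq start (GRCm38.p6), 5′ to 3′ on the gene's strand. Capitals mark matches, on either strand, to the CCAAT box (CCAAT), which binds the factor NF-Y, or to the cell cycle homology region (TTTGAA), through which the DREAM complex and B-MYB act on genes of late cell cycle. The windows are Cks2 at chr13:51644982-51645281 (plus strand), Cks1b at chr3:89418242-89418541 (minus strand), Ccnb2 at chr9:70421505-70421804 (minus strand), Aurkc at chr7:6995135-6995434 (plus strand), Plk1 at chr7:122159185-122159484 (plus strand) and Cdc20 at chr4:118437294-118437593 (minus strand).
Cks2: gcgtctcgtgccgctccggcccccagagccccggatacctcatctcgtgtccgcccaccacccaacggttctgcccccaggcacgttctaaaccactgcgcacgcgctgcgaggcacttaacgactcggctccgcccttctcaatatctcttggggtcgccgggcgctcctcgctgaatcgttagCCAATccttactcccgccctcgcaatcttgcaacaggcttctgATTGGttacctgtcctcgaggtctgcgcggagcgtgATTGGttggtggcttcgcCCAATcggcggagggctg
Cks1b: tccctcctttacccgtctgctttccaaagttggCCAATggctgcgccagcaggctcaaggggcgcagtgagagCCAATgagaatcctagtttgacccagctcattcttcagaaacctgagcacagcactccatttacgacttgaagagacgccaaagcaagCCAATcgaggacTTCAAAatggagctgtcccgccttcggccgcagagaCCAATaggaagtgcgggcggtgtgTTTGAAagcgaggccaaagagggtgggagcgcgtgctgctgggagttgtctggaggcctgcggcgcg
Ccnb2: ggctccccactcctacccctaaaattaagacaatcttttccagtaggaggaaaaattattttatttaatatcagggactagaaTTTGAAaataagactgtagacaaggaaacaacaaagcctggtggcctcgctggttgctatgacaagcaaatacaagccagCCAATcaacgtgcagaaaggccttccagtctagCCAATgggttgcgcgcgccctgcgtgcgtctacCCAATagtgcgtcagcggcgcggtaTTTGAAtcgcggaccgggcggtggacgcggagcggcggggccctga
Aurkc: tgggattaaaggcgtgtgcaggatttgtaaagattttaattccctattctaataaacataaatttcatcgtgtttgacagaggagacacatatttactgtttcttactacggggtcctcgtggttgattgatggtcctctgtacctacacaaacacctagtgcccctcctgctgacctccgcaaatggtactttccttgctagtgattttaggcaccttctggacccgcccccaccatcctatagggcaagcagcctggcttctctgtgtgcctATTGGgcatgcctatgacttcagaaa
Plk1: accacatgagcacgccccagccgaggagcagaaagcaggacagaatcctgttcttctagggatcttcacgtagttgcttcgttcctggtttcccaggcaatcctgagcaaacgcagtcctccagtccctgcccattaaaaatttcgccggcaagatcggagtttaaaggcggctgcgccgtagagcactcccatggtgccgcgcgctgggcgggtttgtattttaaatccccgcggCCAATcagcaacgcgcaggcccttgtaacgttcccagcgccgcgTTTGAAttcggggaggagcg
Cdc20: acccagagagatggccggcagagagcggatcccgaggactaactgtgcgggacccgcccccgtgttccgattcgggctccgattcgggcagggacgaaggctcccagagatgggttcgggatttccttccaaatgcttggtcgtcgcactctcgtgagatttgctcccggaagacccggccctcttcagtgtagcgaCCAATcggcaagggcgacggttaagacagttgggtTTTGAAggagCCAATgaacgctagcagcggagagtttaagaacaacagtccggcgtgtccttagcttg

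Both elements occur on both sides of the comparison. Cks1b and Ccnb2, which rose, hold 2 matches each to TTTGAA beside 4 and 3 CCAAT boxes. Plk1 and Cdc20, which fell, hold 1 match each to TTTGAA beside 1 and 2 CCAAT boxes. Cks2 has 4 CCAAT boxes and no TTTGAA in this window, and Aurkc has 1 CCAAT match only, located after its start. Other matches also lie after the start. They are CCAAT at 14 and 32 bases in Cks2, a TTTGAA at 4 bases in Ccnb2 and the only TTTGAA of Plk1, at 30 bases. RefSeq windows were found for 50 members (55 windows). CCAAT occurred in 27 of them (49.1%, against 37.4% of all 32851 windows) and TTTGAA in 11 (20%, against 17.9%). The E2F-type letters TTTNNCGC occurred in 6 (10.9% against 5.17%) and the cAMP response element TGACGTCA, the site of CREM-type activators, in 2 (3.64% against 1.79%). Matches of different motifs could overlap, and both strands were searched. CCAAT was present in 4 of 9 windows of members called higher and 8 of 12 windows of those called lower, and TTTGAA in 2 of 9 and 3 of 12. A match is a stretch of letters and no evidence of binding.

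Cyclins are the activating partners, and 23.1% of the 13 cyclin-named members were called, against 42.0% of all genes. Ccnd3, whose product joins CDK4 and CDK6 in early cell cycle and has been described in maturing spermatids, stood at 88.3, 60.4 and 41.5 CPM in SKO and at 190.4, 202.9 and 184.9 CPM in wild type. Every SKO library lay below wild type, with replicate 3 the lowest. The gene (chromosome 17, plus strand, 47505051 to 47599691) fell by 1.60 ± 0.24 on the log2 scale (edgeR adjusted p = 0.000684). It shares exon bases with Bysl on the opposite strand, which went from 20 to 4.22 CPM, and without a stated strand setting the reads of the overlap cannot be assigned. No other cyclin of the D type was analysed here.

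The B-type cyclins bind CDK1. Ccnb2 (chromosome 9, minus strand, 70407692 to 70421547) stood at 972, 1060 and 723 CPM in SKO and at 655, 609.7 and 671 CPM in wild type. The groups did not overlap, though SKO replicate 3 was closer to wild type than to the other SKO libraries. The log2 fold change was 0.51 ± 0.15 (edgeR adjusted p = 0.0241). The call ended with library totals alone (adjusted p = 0.136) and without any 1 of SKO replicates 1 and 2 or wild-type replicates 1, 2 and 3 (0.0642 to 0.102). Ccnb1 stood at 630.8, 662.7 and 445.8 CPM in SKO and at 516.7, 497.7 and 528.5 CPM in wild type. SKO replicates 1 and 2 were above and replicate 3 below all wild-type libraries, and the difference of 0.17 ± 0.16 was not called (edgeR adjusted p = 0.408). Without SKO replicate 3 it was 0.30 (edgeR adjusted p = 0.00796). Ccnb2 formed 71.5%, 72.2% and 72.5% of the summed Ccnb1 and Ccnb2 level per kb in SKO and 67.3%, 66.6% and 67.4% in wild type. These shares did not overlap and had little spread, although 3 libraries against 3 cannot give an exact permutation p below 0.1 (two-sided; p = 0.1, adjusted p = 0.12). The pseudogenes Ccnb2-ps (1.08 against 2.56 CPM) and Ccnb1-ps (5.18 against 4.84 CPM) may share reads with their parent genes, so both are uncertain. Ccnb2-ps was called lower by a narrow margin (edgeR adjusted p = 0.0499), and the call ended without SKO replicate 1 or 3 or any wild-type replicate (0.0609 to 0.144).

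Ccna1, the germ cell A-type cyclin needed for male meiosis, stood at 401.4, 373.9 and 307.7 CPM in SKO and at 462.9, 465.1 and 416.7 CPM in wild type. Every SKO library was below wild type, but the difference of -0.31 ± 0.14 was not called (edgeR adjusted p = 0.0918). It was called without SKO replicate 1 (-0.42, adjusted p = 0.0499), without SKO replicate 3 (-0.24, 0.0446) and under library totals alone (-0.56, 0.00556). Ccna2, the A-type cyclin of dividing cells, was at 3.51, 5.14 and 3.68 against 2.15, 3.43 and 0.753 CPM, also not called (0.96 ± 0.45, edgeR adjusted p = 0.113). It was called higher with limma-voom (adjusted p = 0.0465), with a replicate block (0.0337) and without wild-type replicate 2 (0.0399). Its exons overlap those of Exosc9 on the opposite strand, which was higher in SKO (64.1 against 36.3 CPM). Ccna1 made up 99.3% ± 0.145 of the A-type level per kb in SKO and 99.7% ± 0.16 in wild type. X-linked Ccnb3, a meiotic B-type cyclin, was low at 1.49, 1.39 and 0.851 against 0.596, 0.852 and 0.337 CPM, and its groups overlapped by a small margin. The T-type cyclins of the elongation kinase, Ccnt1 (28.1 against 22.6 CPM) and Ccnt2 (5.73 against 3.68 CPM), lay above wild type in every SKO library and were not called (edgeR adjusted p = 0.133 and 0.0616). Both were called higher after the length and GC correction (adjusted p = 0.0414 and 0.0434). Ccnt2 was also called with DESeq2 (0.0487) and limma-voom (0.0482). Of the 13 cyclin-named members, 1 rose, 2 fell and 10 were not called (23.1% called, against 42.0% of all genes).

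Among the 17 CDKs tested, 4 rose, 4 fell and 9 were not called, a called share of 47.1% near the 42.0% of all genes. The kinases that drive division did not pass the test. Cdk1 stood at 39.2, 36.1 and 38.3 CPM in SKO and at 29, 31 and 34.8 CPM in wild type. The SKO libraries were slightly above with no overlap (0.26 ± 0.14, edgeR adjusted p = 0.165; 0.45 and adjusted p = 0.0214 after correction for transcript length and GC content). Cdk2, the partner of A- and E-type cyclins that also acts at meiotic telomeres, was at 11.9, 12.8 and 9.03 against 10, 11 and 9.62 CPM, and the groups overlapped (edgeR adjusted p = 0.583).

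The 2 kinases that pair with D-type cyclins moved in opposite directions. Cdk4 was at 12.9, 12.9 and 11.6 CPM in SKO and at 5.79, 8.06 and 8.27 CPM in wild type, with every SKO library above (0.76 ± 0.19, edgeR adjusted p = 0.00953). Cdk6 was at 3.10, 5.29 and 4.06 CPM in SKO and at 12, 12.3 and 11.8 CPM in wild type, with every SKO library below (-1.54 ± 0.22, edgeR adjusted p = 0.000532). The calls of Ccnd3, Cdk4 and Cdk6 held in each of the 14 alternatives.

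The CDKs of transcription include Cdk12, which with cyclin K phosphorylates RNA polymerase II on long genes. Cdk12 was at 11.7, 10.6 and 22 CPM in SKO and at 5.74, 5.28 and 3.96 CPM in wild type. All SKO libraries were above, replicate 3 furthest, and the rise was 1.57 ± 0.29 (edgeR adjusted p = 0.00229). Its partner gene Ccnk, from the list of other cyclins, was at 60.1, 58.6 and 116.1 CPM in SKO against 39.6, 37.8 and 35.8 CPM, a rise of 1.05 ± 0.25 (edgeR adjusted p = 0.00797), again with replicate 3 the highest. Cdk19, a Mediator kinase, was at 26.6, 25.8 and 45.1 against 18.9, 19.7 and 16.5 CPM (0.82 ± 0.22, edgeR adjusted p = 0.0152), and Cdk19os on its opposite strand fell from 21.1 to 7.55 CPM. The Cdk19 call ended under library totals alone (adjusted p = 0.0753) and without wild-type replicate 3 (0.0607). Cdk13, the paralog of Cdk12, was at 9.48, 6.98 and 11 against 8.38, 10.1 and 6.96 CPM and overlapped. Cdk7 (60.6 against 48.9 CPM) and Cdk9 (1.74 against 1.04 CPM) lay above wild type in every SKO library and were not called (edgeR adjusted p = 0.102 and 0.108). Without SKO replicate 3, Cdk7 was called higher (0.34, adjusted p = 0.0424).

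The remaining called kinases belong to less studied branches of the family. Cdk14, which works with membrane-bound cyclin Y, was at 23, 25.4 and 18.5 CPM in SKO and at 11.8, 12.3 and 11.5 CPM in wild type, and rose by 0.91 ± 0.16 (edgeR adjusted p = 0.00198). Its relatives Cdk15 (0.936 against 1.17 CPM, edgeR adjusted p = 0.671) and Cdk17 (17.9 against 26 CPM, edgeR adjusted p = 0.101) were not called. Cdk17 was called lower under library totals alone (adjusted p = 0.0189) and without SKO replicate 1 (0.0463). Another pair of relatives fell. Cdk18 was at 1.05, 1.28 and 1.21 against 3.94, 4.94 and 5.07 CPM (-1.97 ± 0.24, edgeR adjusted p = 0.000251), and Cdk16, needed for normal spermatid shaping and regulated by cyclin Y, at 42.9, 29.6 and 22.2 against 52.3, 49.9 and 52.8 CPM (-0.71 ± 0.22, edgeR adjusted p = 0.0261). Cdk14, Cdk18 and Cdk16 did not overlap between groups. Cdk16 lies on the X chromosome, where 451 of 720 genes tested were higher and 13 lower. Its call ended after the length and GC correction (-0.35, adjusted p = 0.21) and without SKO replicate 2 or any wild-type replicate (0.0652 to 0.0736). Cdk20, a kinase linked to cilia, was at 45.9, 33.8 and 35.7 against 64.6, 75 and 58.1 CPM and fell by 0.78 ± 0.17 (edgeR adjusted p = 0.00498).

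Of the 4 genes of the switch on CDK1, 1 fell and 3 were not called (25% called, against 42.0% of all genes). Pkmyt1 encodes the membrane-bound kinase that keeps CDK1 inactive. It was at 9.42, 5.99 and 3.76 CPM in SKO and at 25.2, 21.3 and 23.4 CPM in wild type, on chromosome 17 (plus strand, 23726336 to 23736735). All SKO libraries were well below wild type, with replicate 3 the lowest, and the fall was 1.87 ± 0.29 (edgeR adjusted p = 0.000873). Wee1, the nuclear kinase with the same target, was at 21.7 ± 1.76 against 25.1 ± 4.19 CPM and was not called (edgeR adjusted p = 0.335). The activating phosphatase gene Cdc25c was at 86.2, 97 and 67.7 CPM in SKO and at 68.3, 63 and 60.7 CPM in wild type. Its groups overlapped through SKO replicate 3, and it was not called (0.39 ± 0.16, edgeR adjusted p = 0.0748; 0.48 and adjusted p = 0.00643 without SKO replicate 3). Cdc25a was at 38.95 ± 9.64 against 59 ± 20.7 CPM, and was not called (edgeR adjusted p = 0.0976). It was called lower with DESeq2 (adjusted p = 0.046), under library totals alone (0.0382) and without wild-type replicate 3 (0.0394).

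Among the Cdkn-named genes, 1 rose, 1 fell and 5 were not called (28.6% called, against 42.0% of all genes). Cdkn1c, which encodes an inhibitor of several CDKs, was at 1.32, 1.67 and 1.62 CPM in SKO and at 2.79, 3.72 and 3.45 CPM in wild type, without overlap, and fell by 1.11 ± 0.25 (edgeR adjusted p = 0.00643). The inhibitors of CDK4 and CDK6 known from germ cells, Cdkn2d (45.5 ± 6.59 against 50.6 ± 1.93 CPM) and Cdkn2c (26.2 ± 4.71 against 23.4 ± 3.38 CPM), overlapped between groups. After the length and GC correction Cdkn2c was called higher (0.5, adjusted p = 0.0308). Cdkn2aipnl was at 18.4, 21.4 and 21.4 against 15.3, 13.2 and 16.4 CPM and was called higher (0.45 ± 0.16, edgeR adjusted p = 0.0433). That call ended under library totals alone (0.21, adjusted p = 0.318), with no filter on low counts (0.0534), and without SKO replicate 2 or 3 or any wild-type replicate (0.0613 to 0.148).

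The 3 Aurora kinase genes behaved differently. Aurkc, the Aurora of meiotic cells and a partner of the chromosomal passenger complex at centromeres, was at 13.7, 16.1 and 15.3 CPM in SKO and at 72.9, 72.1 and 69.5 CPM in wild type. All SKO libraries lay below all wild-type libraries, and each group had little spread. The gene lies on chromosome 7 (plus strand, 6995300 to 7003091) and fell by 2.25 ± 0.14 (edgeR adjusted p = 1.21e-05), from -2.49 to -2.21 over the 14 alternatives. Aurkb, the Aurora of the same complex in dividing cells, was at 11.6, 11.4 and 6.77 against 15.9, 17 and 15.7 CPM. It fell by 0.71 ± 0.21 (edgeR adjusted p = 0.0239) without overlap, and the call ended when any 1 wild-type replicate was left out (0.057 to 0.08). Aurka, the Aurora of spindle poles, was at 605.3, 561.7 and 400.5 CPM in SKO against 507.7, 512.7 and 520.8 CPM. Its SKO libraries lay on both sides of wild type (0.02 ± 0.16, edgeR adjusted p = 0.918), and the sign turned under library totals alone (-0.22).

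As a share of the level per kb of the 3 Aurora genes together, Aurkc held 3.53%, 4.43% and 5.84% in SKO and 18.7%, 18.4% and 17.6% in wild type. Against Aurkb alone it held 66.7%, 70.5% and 79.2% in SKO and 88.6%, 87.8% and 88.2% in wild type. Neither share overlapped between groups (exact permutation test, two-sided, p = 0.1 for each, adjusted p = 0.12, the smallest raw p the design allows being 0.1). Aurkc thus remained the larger of the pair in every library, but by a smaller margin in SKO. All 6 shares given here were chosen after their values were seen, so their tests add no support.

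**Figure D3:**
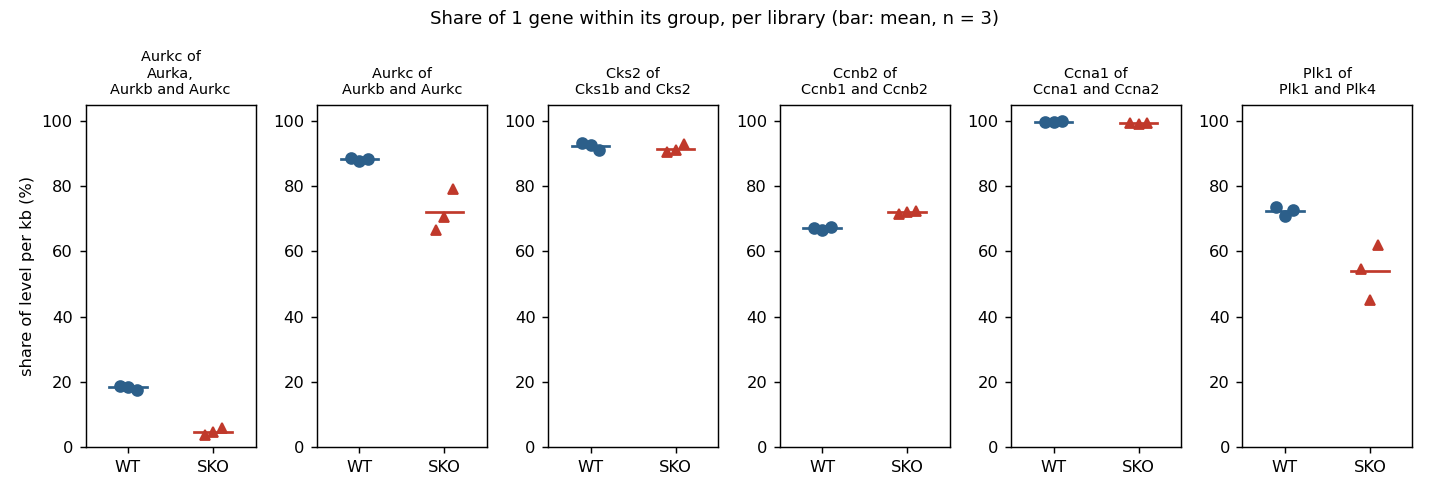
Share (y axis, percent of summed level per kb) of the first-named gene within its pair or trio, in each library; circles are wild type, triangles SKO and bars the means of 3 libraries. Aurkc falls from 18.2% to 4.6% of the Aurora genes and Plk1 from 72.4% to 53.8% of the Plk1 and Plk4 pair, Ccnb2 rises from 67.1% to 72.1%, and the CKS share overlaps.

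Plk1, the Polo kinase of mitotic entry, spindle and cytokinesis, was at 121.4, 84 and 95.5 CPM in SKO and at 227.1, 216.2 and 202.7 CPM in wild type. All SKO libraries were far below, and the gene (chromosome 7, plus strand, 122159439 to 122169873) fell by 1.10 ± 0.16 (edgeR adjusted p = 0.000546). Plk4, the kinase that starts centriole duplication, was at 158.8, 162.8 and 93.4 against 129.6, 139.5 and 119.8 CPM. Its SKO libraries lay on both sides of wild type (edgeR adjusted p = 0.74). Plk1 made up 53.8% ± 8.47 of the summed Plk1 and Plk4 level per kb in SKO and 72.4% ± 1.27 in wild type, without overlap (exact permutation test, two-sided, p = 0.1, adjusted p = 0.12). Plk2, a stress-induced Polo kinase, was low but higher in SKO, at 3.53, 3.23 and 3.72 against 1.36, 1.93 and 0.737 CPM (1.38 ± 0.34, edgeR adjusted p = 0.00986). Plk3 and Plk5 were at or below 1.26 CPM in every library and were not called.

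Both activators of the APC/C fell, where 20.9% of all genes were called lower. Cdc20, the activator at the metaphase-anaphase step, was at 101, 77.6 and 75.8 CPM in SKO and at 163.2, 211.3 and 153.8 CPM in wild type, on chromosome 4 (minus strand, 118432901 to 118437352). The groups did not overlap, and the fall was 1.05 ± 0.17 (edgeR adjusted p = 0.00112). Fzr1, which takes over after anaphase, was at 156.8, 114.9 and 129.3 against 178.8, 186 and 184.2 CPM and fell by 0.45 ± 0.14 (edgeR adjusted p = 0.0278). Fzr1 shares exon bases with Mfsd12 on the opposite strand, which fell from 12.4 to 7.37 CPM (edgeR adjusted p = 0.00823), so the reads of the overlap cannot be assigned. The Fzr1 call ended without SKO replicate 2 or any wild-type replicate (adjusted p = 0.0753 to 0.0862) and after the length and GC correction (-0.09, adjusted p = 0.574).

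The Nek kinases act on centrosomes, cilia and microtubules. Of 10 tested, 2 rose, 1 fell and 7 were not called (30% called, against 42.0% of all genes). Nek1, linked to cilia and to meiotic chromosomes, was at 61.8, 56.1 and 51.8 CPM in SKO and at 30.9, 40.8 and 32.1 CPM in wild type, without overlap, and rose by 0.71 ± 0.16 (edgeR adjusted p = 0.00586). Its exons overlap those of Gm45809 on the same strand, which was also called higher (1.86 against 0.494 CPM). Nek2, a centrosome-splitting kinase and the most abundant Nek gene here, was at 133.7, 101.7 and 129.8 against 133.2, 205.6 and 115.9 CPM, and the groups overlapped (edgeR adjusted p = 0.264). Nek9 was at 7.13, 7.40 and 13.1 against 6.63, 5.39 and 3.99 CPM, called higher at the margin (0.79 ± 0.28, edgeR adjusted p = 0.0487). That call ended without SKO replicate 3 (0.41, adjusted p = 0.169), without SKO replicate 2 or wild-type replicate 2 or 3 (0.058 to 0.159), with DESeq2 size factors (0.052) and with library totals alone (0.163). Nek11 was at 21.7, 21.9 and 18.4 against 29.1, 30.3 and 26.5 CPM and was called lower (-0.47 ± 0.15, edgeR adjusted p = 0.0284). That call ended with the length and GC correction (adjusted p = 0.104) and without any wild-type replicate (0.056 to 0.102). Nek11 shares exon bases with the more abundant Aste1 on the opposite strand (124.9 against 149.2 CPM, not called), so the reads of the overlap cannot be assigned.

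SKO replicate 3 had the lowest value of all 6 libraries for 20 of the 63 members (31.7%) and the highest for 12 (19.0%), beside 24.1% and 24.9% of all genes. The median difference of the members from the wild-type mean was -0.179 in that library, 0.033 in SKO replicate 1 and -0.006 in replicate 2, on the scale of log2(CPM + 0.5). Its summed level over all members was 3388 CPM, against 4372 and 4205 CPM in the other SKO libraries and 4040 to 4353 CPM in wild type. With that library left out, 13 members were called higher and 14 lower, beside 4329 and 4766 of all genes.

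Other genes of the same pathways were counted from lists chosen by function. Of 24 APC/C and SCF ligase genes, 8 rose, 3 fell and 13 were not called, with a median of 0.153. The called share of this list, 45.8%, was near the 42.0% of all genes, of which 21.2% were higher and 20.9% lower. Anapc10, which helps to bind substrates, rose from 128.7 to 243.5 CPM (0.92 ± 0.13, edgeR adjusted p = 0.000553) and Ube2c, the E2 enzyme of the complex, from 97.2 to 170.6 CPM. Anapc2, the cullin subunit, fell from 18.2 to 9.38 CPM and Cdc23, a scaffold subunit, from 17.5 to 10 CPM. Cdc20 and Fzr1, described above, fell.

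Of 11 Aurora and Polo partners, 4 rose and 2 fell (54.5% called, against 42.0% of all genes). Birc5 (survivin), the passenger complex subunit, was at 217.4, 223.9 and 271.5 CPM in SKO and at 124.5, 110 and 126.8 CPM in wild type, a rise of 0.98 ± 0.14 (edgeR adjusted p = 0.000522), whereas Aurkb and Aurkc, its kinase partners, fell. The other subunit genes, Incenp (14.8 against 14.7 CPM) and Cdca8 (70.8 against 57.4 CPM), were not called. Sgo1, a protector of centromeric cohesion, rose from 0.836 to 3.46 CPM. Bora, the cofactor through which Aurora A activates Polo-like kinase, fell from 90.7 to 53.5 CPM, and Cep152, the scaffold for the PLK4 protein, from 7.01 to 2.42 CPM.

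Of 18 other cyclins and activators, 5 rose and 3 fell (44.4% called, against 42.0% of all genes). Ccnh, the partner of CDK7, rose by 0.74 ± 0.16 (edgeR adjusted p = 0.00443), Cntd1, a cyclin-like gene of meiotic crossover, fell by 1.03 ± 0.20 (edgeR adjusted p = 0.00252), and Ccnf fell by 1.14 ± 0.24 (edgeR adjusted p = 0.00443). Among 16 DNA replication genes 1 rose and 6 fell, with a median of -0.325 and a called share of 43.8%, near that of all genes. Mcm7, a helicase subunit, went from 81.4 to 25.6 CPM and Cdc6, which loads it, from 6.80 to 2.21 CPM, while the clamp gene Pcna rose from 211.6 to 300.5 CPM. Of 19 E2F, RB and DREAM genes 3 rose and 4 fell (36.8% called). Mybl1, the meiotic MYB activator, rose from 10 to 19.8 CPM, E2f8 rose from 1.41 to 2.82 CPM, and Lin37 and Rbbp4, both DREAM subunits, fell by 0.73 ± 0.14 and 0.59 ± 0.16. Of 10 Greatwall and phosphatase genes (20% called) only Ppp2cb rose and only Ppp2r2a fell among those called (edgeR adjusted p = 0.0154 and 0.0472).

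**Figure D4:**
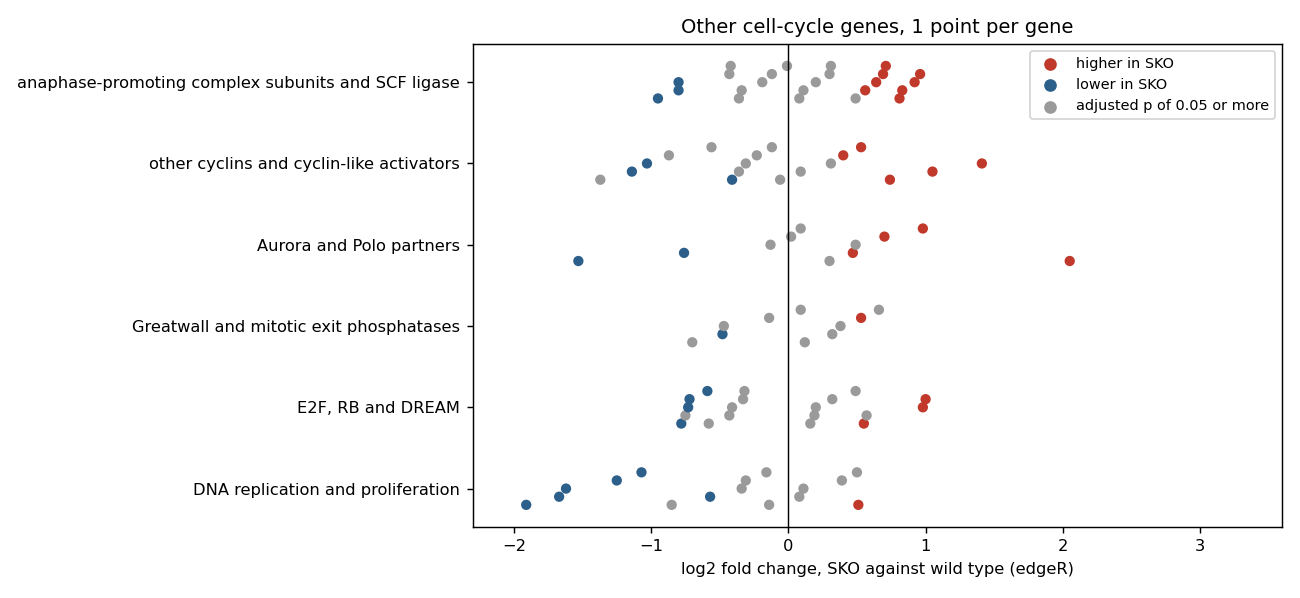
Log2 fold change (x axis, edgeR) of each tested gene in 6 lists of other cell-cycle genes; 1 point is 1 gene, red is called higher, blue called lower and grey not called, and the vertical scatter within a list has no meaning. The APC/C and SCF list holds 8 red and 3 blue points and the DNA replication list 1 red and 6 blue.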

How the data were processed

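Smart-seq2 libraries of sorted round spermatids (3 SKO, 3 wild type; columns headed cKO and WT were matched to samples by genotype and replicate number) gave 52055193 to 60970931 counts each. The authors deposited raw counts per gene. Per the submitters' processing notes, which give no roles, HISAT2 2.0.5, featureCounts 1.5.0-p3 of Subread, Trim Galore 0.6.4 and FastQC were used with the build GRCm38 (mm10). The annotation release and the strand and multimapping settings were not given in the sources used here. Counts carry no molecular identifiers, so depth describes counting error only.

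Genes were filtered with filterByExpr (minimum counts 10 and 15), scaled by TMM and tested with edgeR 4.0.16 (quasi-likelihood, Benjamini-Hochberg over 19776 genes, threshold 0.05), checked on simulated data. Lengths and GC content came from GENCODE M21, with 63 of 64 members matched, and promoter windows from RefSeq (GRCm38.p6). Alternatives were DESeq2 1.42.0, limma-voom (limma 3.58.1), other scalings and filters, a length and GC correction, a replicate block, and each library left out. Per-library values are given for called members without overlap at 5 CPM or more (up to 12 in each direction), the 8 of highest wild-type level per kb, and a list of core regulators. From each other list up to 2 genes called in each direction with the lowest adjusted p are named. Further genes and the 6 shares were added after their values were seen. The members and lists were chosen with earlier results of these data known. 1 gene that the symbols match is not reported here.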

Additional observations from a re-analysis of the deposited data

How the results depend on the processing

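Directions of the called members were the same in every alternative that tested them: 14 for most, and 13 for Cdkn1c, Plk2, Cdk18 and Ccnb2-ps, which the 5 CPM filter removes. Scaling by library totals alone gave 7 members higher, a members' median of -0.345, and signs opposite to the main ones for 7 members, among them Aurka (-0.22), Plk4 (-0.16), Cdk2 (-0.11), Ccnb1 (-0.07) and Cdkn2c (-0.07). Requiring 5 CPM in 3 libraries gave a median of 0.082 and 2742 genes lower in all, and the length and GC correction gave 16 members higher and 11 lower, a median of 0.063 and 3 members of opposite sign, Wee1 (0.04) among them. Leaving out 1 library gave 8 to 13 members higher, 9 to 15 lower and a median of -0.139 to 0.025. The same fits called 3064 to 4329 of all genes higher and 3025 to 4766 lower. In those fits Aurka ranged from -0.12 (without SKO replicate 1) through -0.06 (without SKO replicate 2) to 0.15, Plk4 from -0.07 (without SKO replicate 2) through -0.04 (without SKO replicate 1) to 0.28, and Cdkn2c from -0.03 (without SKO replicate 3) to 0.28. The cause was not tested, apart from the filter, which tests fewer genes. DESeq2 called 12 members higher and 15 lower, and 4452 and 4548 of all genes.

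With a replicate block, 9 members were higher and 12 lower, and 3552 and 3666 of all genes; the calls of Ccnb2 (adjusted p = 0.0598), Fzr1 (0.062), Nek11 (0.07), Nek9 (0.0866) and Cdkn2aipnl (0.101) ended. Libraries with the same number did not deviate together (r = -0.0811, -0.154 and -0.0963). With 3 libraries per group this check cannot exclude a pairing, and the labels do not state one. Low levels limit 6 members under 1 CPM in both groups. Exon bases are shared with another gene of the count table for 19 members, 8 of them called.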
